A study of Mus musculus with 12 samples.

Results

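Bile acid synthesis and transport was followed in mouse liver through 10 genes, listed by name for their roles, out of the 47263 genes of the deposited table. They comprise 5 enzymes of synthesis (Cyp7a1, Cyp8b1, Cyp27a1, Cyp7b1 and Akr1d1), 3 transporters (Slc10a1, Abcb11 and Abcc2) and the nuclear receptors Nr0b2 and Nr1h4. All 10 were measured in every library and passed the filter on low values. The study crossed a hepatocyte-specific knockout of Sirt2, a protein deacetylase, with plasmid delivery to the liver, and sequenced RNA of whole liver tissue in 12 libraries, 3 in each of 4 groups. The groups were KO MET/CAT livers (Sirt2 knockout mice given MET and beta-catenin plasmids), WT MET/CAT livers (wild-type mice given the same plasmids), KO GFP livers (knockout mice with GFP overexpression) and WT GFP livers (wild-type mice with GFP overexpression). The MET/CAT model of liver cancer was made by hydrodynamic injection, a rapid large-volume tail vein injection that drives plasmid DNA into hepatocytes. The mixture held 22.5 µg of a c-MET plasmid, 22.5 µg of a plasmid for truncated (DN90) beta-catenin, both under the EF1a promoter, and 5 µg of the transposase plasmid HSB2 in 2 mL of saline. Mice were 6 to 8 weeks old at injection, matched for age and sex and kept on standard diet, and livers were taken 8 weeks later. The labels give neither the amount and composition of the GFP plasmids nor the knockout allele and its Cre driver. Groups were taken from the sample titles. The treatment field of the labels follows genotype instead, and so goes against the titles of 6 libraries, those named KO GFP and WT MET/CAT. The labels do not say that each library of a group came from its own mouse, so p-values measure only the spread between these libraries.

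Bile acids are made from cholesterol in hepatocytes. The classical route starts with Cyp7a1 and the acidic route with Cyp27a1 followed by Cyp7b1, and the products pass from blood into the hepatocyte through Slc10a1 and into bile through Abcb11. Bile acids activate the nuclear receptor Nr1h4 (FXR), which induces Nr0b2 (SHP) and Abcb11, and this feedback, together with an intestinal hormone that signals through Klb and Fgfr4, represses Cyp7a1 and Cyp8b1.

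Upstream sequence from RefSeq (build GRCm38.p6) was found for 8 of the 10 genes, in 9 windows of 300 bases from 250 before to 50 after the start. It is shown for Abcc2, a transporter whose level differed between plasmids in KO livers. It is also shown for Abcb11, Nr0b2 and Cyp8b1, 3 genes of the feedback loop whose levels passed no limma test in the main fit. Capitals mark 1 match to a nuclear receptor motif in each sequence, printed 5′ to 3′ on the strand of the gene and searched on both strands.
Abcc2, chr19:43782247-43782276, plus strand: tgtcaggatgaaAGGTCAggagacttgcct
Abcb11, chr2:69342617-69342866, minus strand: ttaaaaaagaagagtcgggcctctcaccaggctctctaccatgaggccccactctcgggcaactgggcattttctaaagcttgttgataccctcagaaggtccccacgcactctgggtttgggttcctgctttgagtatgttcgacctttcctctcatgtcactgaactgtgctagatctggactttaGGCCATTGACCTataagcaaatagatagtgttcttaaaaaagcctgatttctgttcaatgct
Nr0b2, chr4:133553126-133553375, plus strand: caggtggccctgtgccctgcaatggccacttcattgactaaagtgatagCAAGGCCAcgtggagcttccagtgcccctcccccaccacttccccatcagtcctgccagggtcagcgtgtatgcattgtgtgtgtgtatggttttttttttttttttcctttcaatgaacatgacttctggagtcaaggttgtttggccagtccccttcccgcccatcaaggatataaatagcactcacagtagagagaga
Cyp8b1, chr9:121916306-121916555, minus strand: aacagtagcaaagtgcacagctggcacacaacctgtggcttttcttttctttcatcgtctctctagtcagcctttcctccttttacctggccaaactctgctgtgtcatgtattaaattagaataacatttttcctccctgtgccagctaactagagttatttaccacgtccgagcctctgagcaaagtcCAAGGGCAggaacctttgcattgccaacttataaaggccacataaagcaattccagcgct
In Abcc2 the capitals are the receptor hexamer AGGTCA, from −49 to −44 relative to the RefSeq start. In Abcb11 they are the inverted repeat GGNCANTGACCT, the arrangement that FXR is known to bind, from −62 to −51. In Nr0b2 and Cyp8b1 they are the extended motif CAAGGNCA, the form used by orphan receptors such as Nr5a2 (LRH-1), from −201 to −194 in Nr0b2 and from −60 to −53 in Cyp8b1. Among all 32851 windows the hexamer was found in 16.3%, the extended motif in 6.71% and the inverted repeat in 0.0883%. Of the 9 windows of these genes, 5 held the hexamer (Abcb11, Abcc2, Akr1d1, Nr1h4 and Slc10a1), 2 the extended motif and 1 the inverted repeat. The motifs overlap, since the inverted repeat ends in the reverse complement of the hexamer and the extended motif contains the hexamer when its N is T. A match describes the letters only. The printed Abcc2 bases lie before the RefSeq start but inside the gene span given below for Abcc2, which begins at 43782192.

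Sirt2 itself checked the genotype in the titles. Its level cannot tell which libraries were given MET/CAT or GFP plasmids, so the plasmid labels were not checked by it. It had 248.1, 234.3 and 200.6 normalized counts in KO MET/CAT livers, against 1068, 942.7 and 908.4 in WT MET/CAT livers. In GFP livers it had 232.6, 182.5 and 125.7 normalized counts in KO, against 823.7, 923.6 and 725.8 in WT. Sirt2 was lower in KO, with a log2 difference of −2.09 in MET/CAT livers (adjusted p = 0.00394, limma over all genes) and of −2.22 in GFP livers (adjusted p = 0.00189, limma). A normalized count is a read count divided by 1 factor per library, and the libraries held 18208879 to 24352961 reads. The third KO GFP library stood apart from the others, at −88.95 on the first principal component, against −33.18 to 52.78 in the other 11. It also had the steepest trend of expression with gene length, with a rank correlation across genes of 0.435 against −0.333 to 0.172. The calls in KO livers that rest on it are given with and without it.

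Per kilobase of exon and averaged over the 12 libraries, Cyp27a1 was the most abundant of the 10 genes at 4563 normalized counts per kb. Slc10a1 followed at 3396, Cyp8b1 at 2026, Abcb11 at 1749 and Akr1d1 at 1049 normalized counts per kb. Nr1h4 had 707.5, Nr0b2 612.6, Cyp7a1 462.9, Abcc2 386.5 and Cyp7b1 237.3 normalized counts per kb. Levels varied across libraries to unequal degrees. The highest library was 17.2 times the lowest for Cyp7a1, 5.83 times for Nr0b2, 3.70 times for Cyp7b1 and 1.68 times for Cyp27a1.

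**Figure D1:**
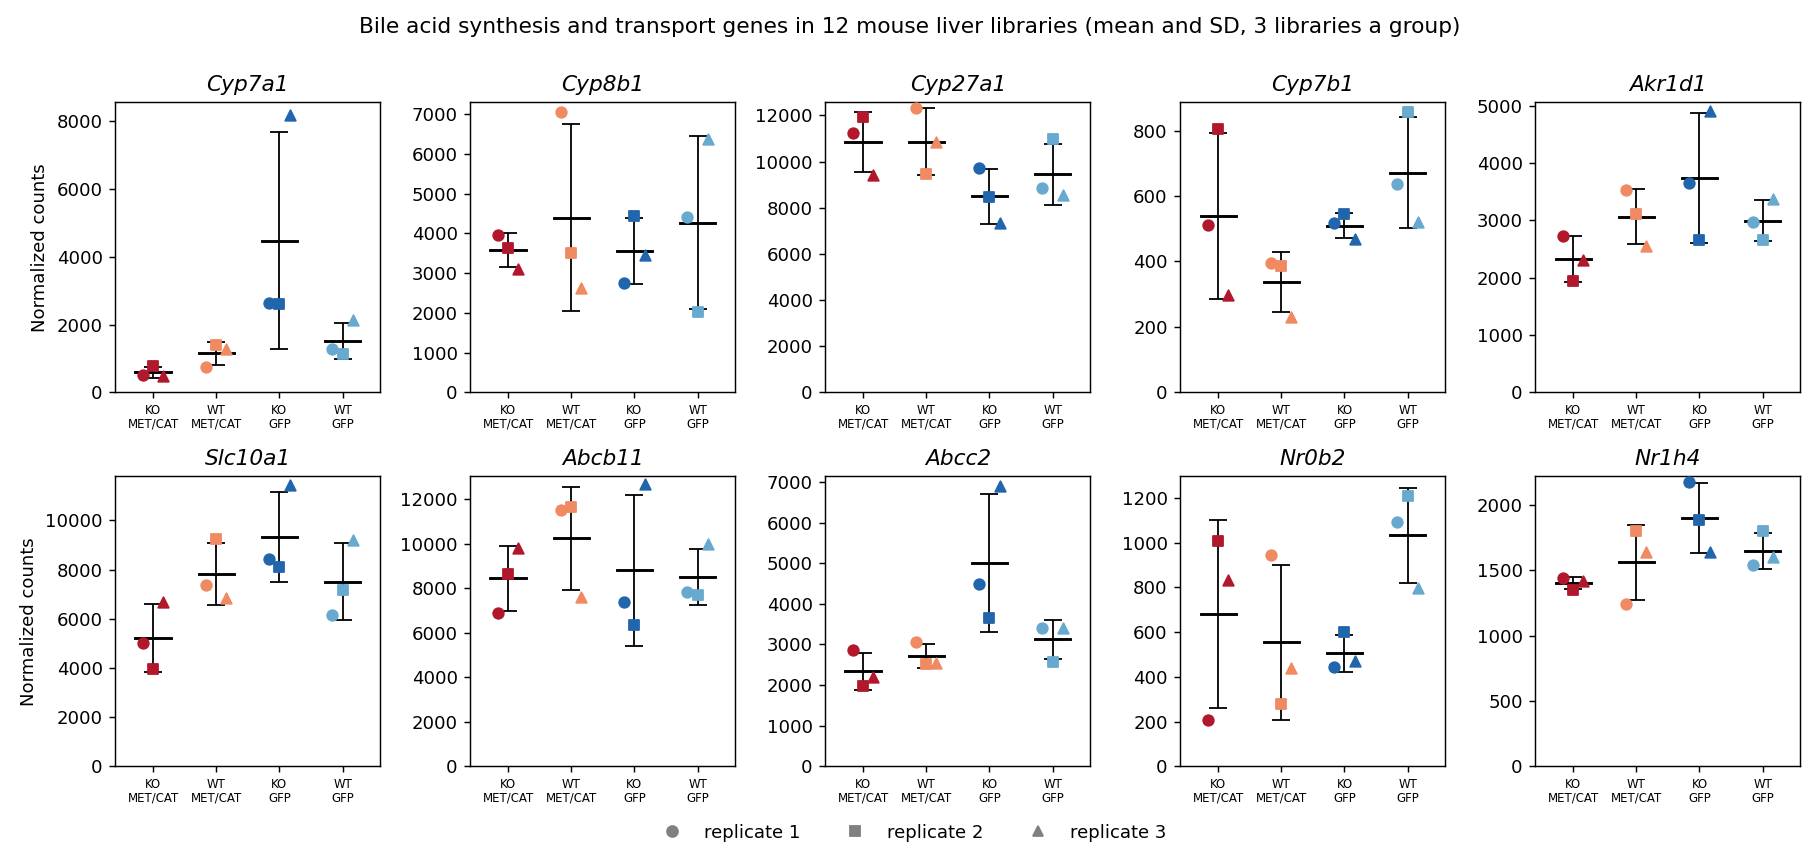
Normalized counts (y axis, linear, each from 0) of the 10 genes in each library, by group (x axis); symbols are replicates, the horizontal bar is the mean and the error bar the SD of 3 libraries. Cyp7a1 spans 476.6 to 8181 normalized counts, and its 3 KO GFP libraries lie above all other libraries.

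Cyp7a1, the rate-limiting enzyme of classical synthesis (ENSMUSG00000028240, chr4:6265612-6275633, minus strand, GRCm38), showed the clearest difference. It had 513, 782.5 and 476.6 normalized counts in KO MET/CAT livers, against 2642, 2604 and 8181 in KO GFP livers. Every KO MET/CAT library lay below every KO GFP library, and the highest, the third KO GFP library, was the one that stood apart. In WT livers Cyp7a1 had 757.5, 1408 and 1273 normalized counts with MET/CAT, against 1268, 1142 and 2135 with GFP, and these groups overlapped. The means were 591 ± 167 normalized counts in KO MET/CAT, 1146 ± 343 in WT MET/CAT, 4476 ± 3209 in KO GFP and 1515 ± 540.5 in WT GFP livers (SD, n = 3 each).

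In KO livers Cyp7a1 was 6.64-fold lower with MET/CAT than with GFP, a log2 difference of −2.73 ± 0.41 (SE, 95% interval −3.61 to −1.86, adjusted p = 0.00741, limma). Without the third KO GFP library the difference was −2.18 and still passed (adjusted p = 0.0134, limma). In WT livers the difference was −0.40 ± 0.41 (95% interval −1.27 to 0.48, adjusted p = 0.687, limma). Averaged over genotypes, Cyp7a1 was lower with MET/CAT, with a log2 difference of −1.56 ± 0.29 (adjusted p = 0.00875, limma). The difference between the plasmid effects of the genotypes was −2.34 ± 0.58 (95% interval −3.57 to −1.10, unadjusted p = 0.00124), which did not pass over all genes (adjusted p = 0.265, limma). These livers are bulk samples, so fewer cells of a type and less RNA per cell cannot be told apart.

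The other enzymes of synthesis passed no limma test of the plasmids in either genotype in the main fit. With library quality weights, an alternative fit, Cyp7b1 passed in WT livers (adjusted p = 0.0189, limma). With those weights Akr1d1 passed in KO livers (adjusted p = 0.0196, limma). Cyp8b1, the hydroxylase that directs synthesis to cholic acid, had 3961, 3645 and 3115 normalized counts in KO MET/CAT livers, against 2763, 4434 and 3469 in KO GFP livers. In WT livers it had 7058, 3521 and 2621 normalized counts with MET/CAT, against 4418, 2028 and 6368 with GFP. The groups overlapped in both genotypes, with differences of 0.03 (95% interval −0.82 to 0.87) in KO and 0.06 (−0.78 to 0.91) in WT on the log2 scale. Those intervals allow a change of either sign.

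Cyp7b1, the oxysterol hydroxylase of the acidic route, had 511.8, 805.6 and 298.3 normalized counts in KO MET/CAT livers, against 516.5, 544.6 and 467.4 in KO GFP livers. Its WT values were 394.7, 384.9 and 231.3 normalized counts with MET/CAT, against 637.2, 855.6 and 521.4 with GFP. The WT groups did not overlap, and the KO groups did. The difference was −1.0 ± 0.33 in WT (unadjusted p = 0.00827, adjusted p = 0.178, limma) and −0.03 in KO livers (95% interval −0.73 to 0.67).

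Cyp27a1, the mitochondrial sterol hydroxylase that opens the acidic route, ranged over 9414 to 11924 normalized counts in KO MET/CAT, 9444 to 12324 in WT MET/CAT, 7338 to 9702 in KO GFP and 8546 to 10963 in WT GFP livers. Its groups overlapped within each genotype, with log2 differences of 0.36 in KO (95% interval −0.06 to 0.77) and 0.20 in WT (−0.21 to 0.61). Akr1d1, a reductase of the sterol ring, had 2731, 1941 and 2309 normalized counts in KO MET/CAT livers, against 3653, 2662 and 4916 in KO GFP livers. These libraries overlapped, and the difference of −0.66 ± 0.23 did not pass (adjusted p = 0.148, limma). In WT livers Akr1d1 differed by 0.03 (95% interval −0.47 to 0.52).

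Of the transporters, Abcc2 differed between plasmids in KO livers. Abcc2 (chr19:43782192-43840740, plus strand, GRCm38) exports conjugated organic anions, bilirubin glucuronides among them, into bile. It had 2854, 1989 and 2188 normalized counts in KO MET/CAT livers, against 4483, 3641 and 6896 in KO GFP livers, with no overlap. In WT livers it had 3050, 2530 and 2546 normalized counts with MET/CAT, against 3409, 2574 and 3411 with GFP, and 1 GFP library lay among the MET/CAT values. Abcc2 was 2.08-fold lower with MET/CAT in KO livers, a log2 difference of −1.06 ± 0.24 (95% interval −1.57 to −0.55, adjusted p = 0.0458, limma). Without the third KO GFP library it was −0.80 and no longer passed (adjusted p = 0.12, limma). Leaving out 1 library at a time, it passed only without KO GFP replicate 2 or without WT MET/CAT replicate 1. In WT livers it differed by −0.20 (95% interval −0.71 to 0.30).

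Slc10a1, the sodium-dependent uptake transporter of the sinusoidal membrane, had 5029, 3945 and 6666 normalized counts in KO MET/CAT livers, against 8438, 8103 and 11420 in KO GFP livers. Its WT values were 7370, 9258 and 6851 normalized counts with MET/CAT, against 6137, 7185 and 9200 with GFP. All 3 KO MET/CAT libraries lay below the KO GFP libraries, while the WT groups overlapped. The difference of −0.85 ± 0.24 in KO livers missed the threshold (adjusted p = 0.092, limma). It was called in 2 of 24 alternatives, DESeq2 among them (adjusted p = 0.0173, DESeq2). In WT livers the difference was 0.07 (95% interval −0.44 to 0.58).

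Abcb11, the bile salt export pump, had 6878, 8653 and 9798 normalized counts in KO MET/CAT livers, against 7379, 6334 and 12669 in KO GFP livers. WT livers had 11513, 11660 and 7587 normalized counts with MET/CAT, against 7846, 7709 and 9973 with GFP. Groups overlapped in both genotypes, with differences of −0.01 (95% interval −0.58 to 0.57) in KO and 0.25 (−0.32 to 0.83) in WT. Other gene models overlap Abcb11 on the opposite strand, and others overlap Cyp7b1 and Akr1d1. The labels do not say whether reads were counted by strand.

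Nr1h4, the bile acid receptor, had 1441, 1352 and 1421 normalized counts in KO MET/CAT livers, against 2175, 1888 and 1639 in KO GFP livers. In WT livers it had 1245, 1799 and 1638 normalized counts with MET/CAT, against 1544, 1805 and 1604 with GFP. The KO groups did not overlap and the WT groups did, and the difference of −0.43 ± 0.18 in KO livers did not pass (adjusted p = 0.209, limma). It was called in 1 of 24 alternatives. Nr0b2, the repressor that Nr1h4 induces, had 207.1, 1007 and 831.1 normalized counts in KO MET/CAT livers, against 445, 599.4 and 472.8 in KO GFP livers. In WT livers it had 943.9, 278.4 and 438.1 normalized counts with MET/CAT, against 1093, 1208 and 796.9 with GFP. Nr0b2 varied within both MET/CAT groups by more than it differed between plasmids in KO livers, and its differences were 0.15 (95% interval −0.95 to 1.26) in KO and −1.06 (−2.17 to 0.04) in WT livers.

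Counted together, in KO livers 0 of the 10 genes rose and 2 fell with MET/CAT, Cyp7a1 and Abcc2. Without the third KO GFP library 1 fell, Cyp7a1. edgeR called the same 2 genes, where it called 1.46% of all genes. DESeq2 called these and Slc10a1, where it called 6.69% of all genes, 3.19% lower. Among all 13871 genes tested limma called 1.25%, with 0.858% higher and 0.397% lower. The split over all genes was 119 higher and 55 lower, and 83 higher and 108 lower once libraries were scaled to equal totals. It was 51 higher and 17 lower, 0.49% of all genes, without the third KO GFP library. In 4 of the 10 all KO MET/CAT libraries lay below all KO GFP libraries, against 10.7% of all genes, and in 0 of the 10 they lay above, against 14.4%. The median log2 difference was −0.23 over the 10 genes and 0.05 over all genes tested. In limma 5 of the 10 had an unadjusted p under 0.05 in KO livers, against 20.3% of all genes.

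In WT livers limma called 0 of the 10, where it called 0.339% of all genes, 0.209% higher and 0.13% lower (29 higher and 18 lower, and 27 higher and 44 lower at equal totals). Of the 10, 1 had an unadjusted p under 0.05, against 14.8% of all genes. On the recovered reads edgeR and DESeq2 also called 0, where they called 0.526% and 4.17% of all genes. Cyp7b1 was the 1 of 10 with all MET/CAT libraries below all GFP libraries, against 10.3% of all genes, and 0 of the 10 lay above, against 10.5%. The 10 genes had a median log2 difference of −0.03 in WT livers, and all genes had −0.01. Averaged over genotypes 0 of the 10 rose and 1 fell, Cyp7a1, where 3.8% of all genes were called, 2.4% higher and 1.4% lower (333 higher and 194 lower, and 224 higher and 424 lower at equal totals). On that average 4 of the 10 had an unadjusted p under 0.05 (limma), against 17.9% of all genes.

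**Figure D2:**
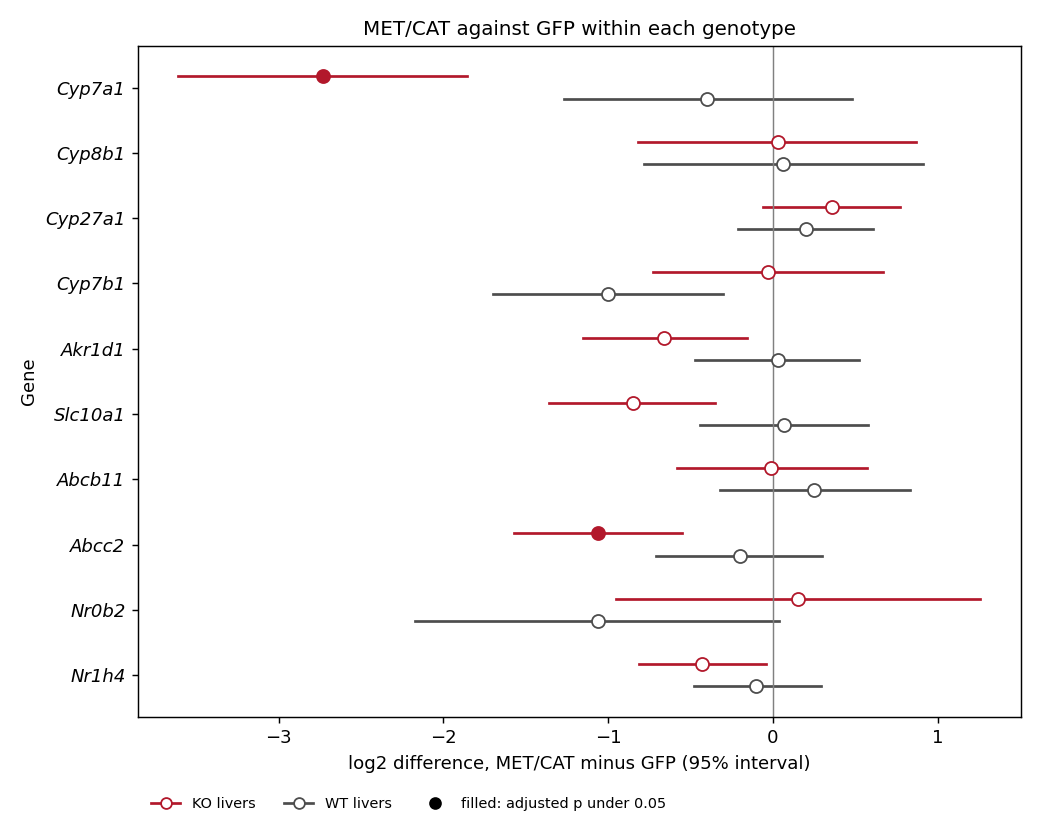
Log2 difference, MET/CAT minus GFP (x axis), for each of the 10 genes (y axis), in KO livers (red) and WT livers (grey), with 95% intervals from limma; filled points have an adjusted p under 0.05 over all genes. Filled points are Cyp7a1 at −2.73 and Abcc2 at −1.06, both in KO livers.

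Some markers of other cells, of inflammation and of pericentral hepatocytes also differed between plasmids. No listed marker was at 0 in all 12 libraries. By contrast, limma called 0 of 6 periportal hepatocyte, 0 of 6 stellate cell and 0 of 5 sinusoidal endothelium markers. This held in KO livers, in WT livers and averaged over genotypes, where it called 1.25%, 0.339% and 3.8% of all genes. The summed level of 6 neutrophil markers was 347.3 to 2917 normalized counts in KO MET/CAT and 300 to 910 in WT MET/CAT livers, against 40.68 to 77.81 in KO GFP and 62.83 to 148.5 in WT GFP livers. Of these Cxcr2, Mmp8 and Ly6g were at 0 in some GFP libraries. The 8 acute phase genes summed to 225600 to 355200 and 201500 to 433500 normalized counts in KO and WT MET/CAT livers, against 99870 to 131500 and 102400 to 151900 in KO and WT GFP livers. Most of each sum was Hp and Fga. Taken singly, 7 of the 8 in KO livers and 4 of the 8 in WT livers had all MET/CAT libraries above all GFP libraries, against 14.4% and 10.5% of all genes. The first WT MET/CAT library had 1471, 928 and 101.7 normalized counts of Saa1, Saa2 and Saa3, against 2230, 1292 and 162 in the second WT GFP library. In KO livers 5 of 8 acute phase genes and 3 of 5 tested neutrophil markers rose in limma, where 0.858% of all genes rose. These counts were 3 of 8 and 0 of 5 without the third KO GFP library, where 0.368% of all genes rose. In WT livers limma called 0 of 8 acute phase genes and 1 of 5 neutrophil markers, where 0.209% of all genes rose. There all 8 acute phase genes had an unadjusted p under 0.05 (limma), against 14.8% of all genes. Averaged over genotypes all 8 acute phase genes and all 5 tested neutrophil markers rose, where 2.4% of all genes rose.

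The 8 Kupffer cell markers summed to 6632, 7237 and 8908 normalized counts in KO MET/CAT livers, against 4651, 4943 and, in the third library, 1307 in KO GFP livers. All 8 had higher values with MET/CAT in KO livers and 6 had an unadjusted p under 0.05, against 20.3% of all genes. But limma and edgeR called 0 and DESeq2 called 1, C1qa, where it called 6.69% of all genes, 3.5% higher. The 7 pericentral hepatocyte markers summed to 123800 to 226200 and 128400 to 193600 normalized counts in KO and WT MET/CAT livers, against 86970 to 137200 and 113200 to 144100 in KO and WT GFP livers. These summed ranges overlapped between plasmids in both genotypes. Much of each sum was 1 gene, Cyp2e1, with group means of 87630 to 96750 normalized counts. Taken singly, 5 of the 7 markers in KO livers had all MET/CAT libraries above all GFP libraries, against 14.4% of all genes. In WT livers 3 of the 7 did, against 10.5% of all genes. Of the 7 markers Glul, glutamine synthetase, rose in KO livers, where 0.858% of all genes rose. Axin2, Glul and Slc1a2 rose averaged over genotypes, where 2.4% of all genes rose. In KO livers 0 of the 7 passed without the third KO GFP library, where 0.49% of all genes passed. The 8 hepatocyte markers summed to 2245000 to 2690000 and 3048000 to 3719000 normalized counts in KO and WT MET/CAT livers, against 2266000 to 2992000 and 2405000 to 2514000 in KO and WT GFP livers. Their ranges overlapped in KO livers and were higher with MET/CAT in WT livers. Most of that sum was 1 gene, Alb, at 2205177 to 2640011 normalized counts in WT MET/CAT, against 1500439 to 1592214 in WT GFP livers. In WT livers 5 of the 8 had higher values with MET/CAT and 3 had lower values. There limma called 0 of the 8. DESeq2 called 2 higher, Alb and Hnf4a, where it called 2.55% of all genes higher.

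The 8 cholangiocyte markers summed to 1265 to 2145 and 758.2 to 1995 normalized counts in KO and WT MET/CAT livers, against 494.5 to 687.8 and 531.8 to 705 in KO and WT GFP livers. Much of that sum was 1 gene, Slc10a2. Without it, a choice made after the values were seen, the other 7 summed to 599.7 to 1266 and 401.8 to 654.9 normalized counts in KO and WT MET/CAT livers, against 186.2 to 458.2 and 380.9 to 432.8 in KO and WT GFP livers. These groups did not overlap in KO livers and overlapped in WT livers. The part of these marker lists in the differences of Cyp7a1 and Abcc2 was not tested.

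Set by genotype at the same plasmid, limma called 0 of the 10 genes in any comparison, where it called 0.00721% of all genes in MET/CAT livers, 0.00721% in GFP livers and 0.0144% averaged over plasmids. At an unadjusted p under 0.05 there were 2 of the 10 in MET/CAT livers, 2 in GFP livers and 0 on average, where the shares of all genes were 7.76%, 15.5% and 8.11%. edgeR called 0 in each, and DESeq2 called Cyp7a1 in GFP livers and 0 in the other comparisons. In GFP livers DESeq2 called 0.872% of all genes, 0.375% higher.

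In MET/CAT livers the values of Cyp7a1 were lower in KO, at 513, 782.5 and 476.6 normalized counts, than in WT, at 757.5, 1408 and 1273, and 1 KO library lay above the lowest WT library. The difference was −0.94 ± 0.41 (95% interval −1.82 to −0.06, adjusted p = 0.605, limma). Slc10a1 had 5029, 3945 and 6666 normalized counts in KO MET/CAT livers, against 7370, 9258 and 6851 in WT MET/CAT livers. These groups did not overlap, and the difference was −0.61 ± 0.24 (adjusted p = 0.598, limma). Slc10a1 was the 1 of 10 with every KO MET/CAT library below every WT MET/CAT library, against 7.01% of all genes, and 0 of the 10 lay above, against 6.82%. Over both plasmids, 0 of the 10 had all 6 KO libraries above, or all 6 below, the 6 WT libraries, against 0.123% and 0.26% of all genes.

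In GFP livers the values of Cyp7a1 were higher in KO, at 2642, 2604 and 8181 normalized counts, than in WT, at 1268, 1142 and 2135, with no overlap. The difference was 1.39 ± 0.41 (95% interval 0.52 to 2.27, unadjusted p = 0.00426, adjusted p = 0.272, limma). DESeq2 gave 1.64 with an adjusted p of 0.028, and limma without the third KO GFP library gave 0.85 (adjusted p = 0.663). Abcc2 had 4483, 3641 and 6896 normalized counts in KO GFP livers, against 3409, 2574 and 3411 in WT GFP livers, a difference of 0.64 ± 0.24 (adjusted p = 0.287, limma, and 0.38 without the third KO GFP library). Nr0b2 had 445, 599.4 and 472.8 normalized counts in KO GFP livers, against 1093, 1208 and 796.9 in WT GFP livers, a difference of −1.02 ± 0.51 (adjusted p = 0.347, limma). Cyp7a1 and Abcc2 were the 2 of 10 genes with every KO GFP library above every WT GFP library, against 9.15% of all genes, and Nr0b2 the 1 with every KO library below, against 13.0%. The KO GFP libraries enter both this comparison and that of MET/CAT with GFP in KO livers. The 8 Kupffer cell markers summed to 4651, 4943 and, in the third library, 1307 normalized counts in KO GFP livers, against 7912 to 10730 in WT GFP livers. Of the 8, limma and edgeR called 0 and DESeq2 called 2 lower, where it called 0.497% of all genes lower. In limma 7 of the 8 had an unadjusted p under 0.05, against 15.5% of all genes. The part of these cells in the difference of Cyp7a1 was not tested.

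**Figure D3:**
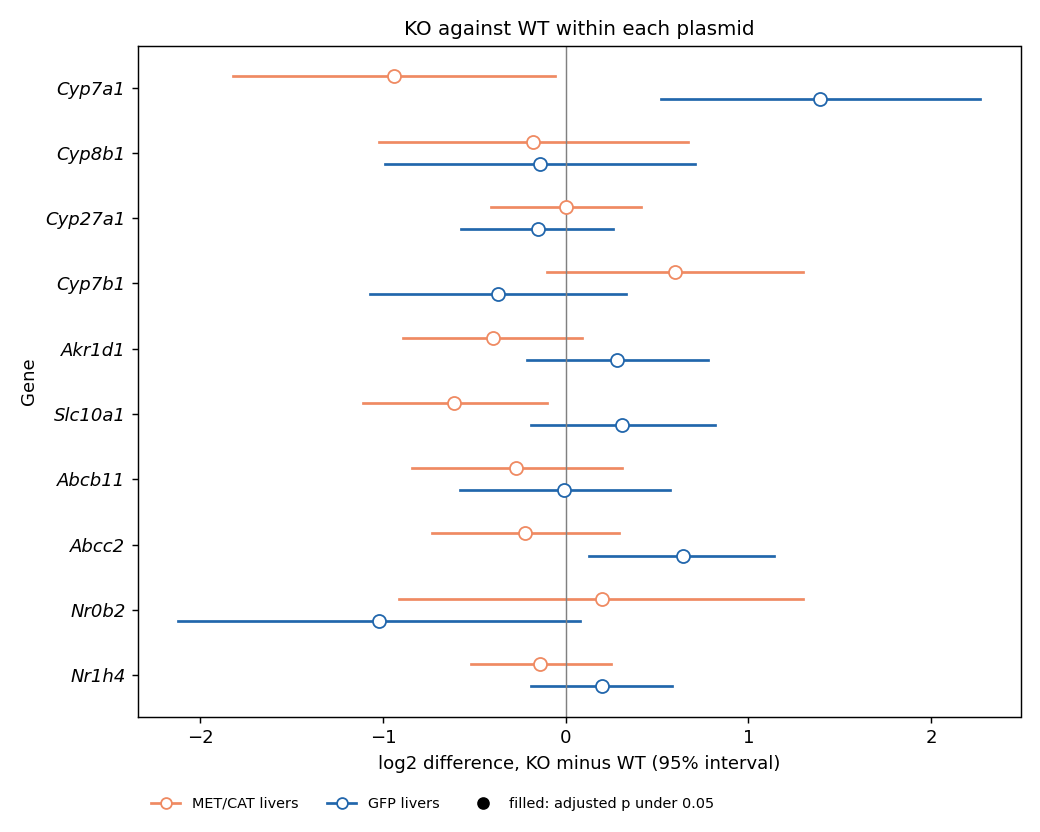
Log2 difference, KO minus WT (x axis), for each of the 10 genes (y axis), in MET/CAT livers (orange) and GFP livers (blue), with 95% intervals from limma; a filled point would mark an adjusted p under 0.05. All points are open, and Cyp7a1 lies at −0.94 in MET/CAT livers and 1.39 in GFP livers.

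For the interaction of genotype and plasmid, limma called 0 of the 10 genes and 0.0% of all genes, and 3 of the 10 had an unadjusted p under 0.05, against 15.5% of all genes. They were Cyp7a1, Slc10a1 (−0.92 ± 0.33, adjusted p = 0.267, limma) and Abcc2 (−0.86 ± 0.33, adjusted p = 0.275, limma). edgeR called 0 of the 10, and DESeq2 called Cyp7a1 (−2.60, adjusted p = 0.00929), where it called 1.22% of all genes.

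A wider list of 39 further genes of the pathway held 13 for synthesis and conjugation, 12 for transport and 14 for regulation, and 34 passed the filter. Hsd3b7, Ch25h, Slc51a, Slc51b and Gpbar1 did not. Hsd3b7, an early enzyme of both routes, was listed at 0 in all 12 libraries. In KO livers 0 of the 34 rose and 2 fell with MET/CAT, where 1.25% of all genes were called, and the median log2 difference of the 34 was −0.02. In limma 11 of the 34 had an unadjusted p under 0.05 in KO livers, against 20.3% of all genes. There limma called 0 of the 34 without the third KO GFP library. edgeR called the same 2 genes in KO livers, where it called 1.46% of all genes. DESeq2 called 1 higher, Zfp36l1, and 5 lower, Abcg5, Abcg8, Klb, Nr1i3 and Onecut1, where it called 6.69% of all genes. In WT livers limma called 0 of the 34, with 9 at an unadjusted p under 0.05, against 14.8% of all genes. There edgeR called 0, and DESeq2 called 3 higher, Cyp39a1 and the transcription factors Hnf4a and Prox1. DESeq2 called 4.17% of all genes there, 2.55% higher. Averaged over genotypes 1 rose and 2 fell, where 3.8% of all genes were called. On that average 11 of the 34 had an unadjusted p under 0.05 (limma), against 17.9% of all genes. DESeq2 called 2 higher and 5 lower, where it called 8.21% of all genes, 4.78% higher and 3.43% lower. Without the third KO GFP library limma called 5 higher and 2 lower, where it called 4.28% of all genes, 2.66% higher and 1.61% lower.

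The called genes of sterol export were Abcg8 and Abcg5, whose products pair to move cholesterol and plant sterols into bile. Abcg8 had 798.4, 591.1 and 1130 normalized counts in KO MET/CAT livers, against 2165, 2109 and 2601 in KO GFP livers. WT livers had 1826, 1272 and 683.8 normalized counts with MET/CAT, against 1634, 1946 and 1835 with GFP. The KO groups stood apart and the WT groups overlapped. Abcg8 was lower with MET/CAT, with log2 differences of −1.49 ± 0.31 in KO livers (adjusted p = 0.0371, limma) and of −1.06 ± 0.22 averaged over genotypes (adjusted p = 0.0168, limma). The KO call was lost on leaving out any 1 of 8 libraries, the 3 KO GFP, the 3 WT GFP and KO MET/CAT replicates 1 and 2, with differences of −1.55 to −1.26.

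Abcg5 had 1456, 738.6 and 1170 normalized counts in KO MET/CAT and 1122, 1204 and 949.5 in WT MET/CAT livers, against 2244, 1892 and 1822 in KO GFP and 1631, 1772 and 1706 in WT GFP livers. All 6 MET/CAT libraries lay below all 6 GFP libraries, a pattern found in 0.872% of all genes. Averaged over genotypes it was lower, with a log2 difference of −0.76 ± 0.16 (adjusted p = 0.0171, limma). Without KO GFP replicate 1 its difference of −0.71 had an adjusted p of 0.05 (limma) and was not called.

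Klb, the co-receptor through which the intestinal hormone acts on Cyp7a1, had 171, 83.7 and 172 normalized counts in KO MET/CAT livers, against 384.7, 290.1 and 652.7 in KO GFP livers. These groups did not overlap, and the difference was −1.62 ± 0.36 (adjusted p = 0.0461, limma). Without the third KO GFP library it was −1.30 (adjusted p = 0.147, limma). Leaving out 1 library at a time, it passed only without WT MET/CAT replicate 1 or 3. In WT livers Klb had 291.1, 236.2 and 165.7 normalized counts with MET/CAT, against 227.4, 238 and 382.8 with GFP, a difference of −0.29 (95% interval −1.07 to 0.49).

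Cyp39a1, an oxysterol hydroxylase that feeds bile acid synthesis, was the 1 gene of the wider list that rose. It had 1075, 1114 and 1153 normalized counts in KO MET/CAT and 1366, 923.7 and 1046 in WT MET/CAT livers, against 747.6, 780 and 706.9 in KO GFP and 621.3, 828.4 and 590.7 in WT GFP livers. All 6 MET/CAT libraries lay above all 6 GFP libraries, a pattern found in 1.61% of all genes. The difference averaged over genotypes was 0.64 ± 0.13 (adjusted p = 0.018, limma). Without WT GFP replicate 1 it was 0.61 and did not pass (adjusted p = 0.0591, limma).

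**Figure D4:**
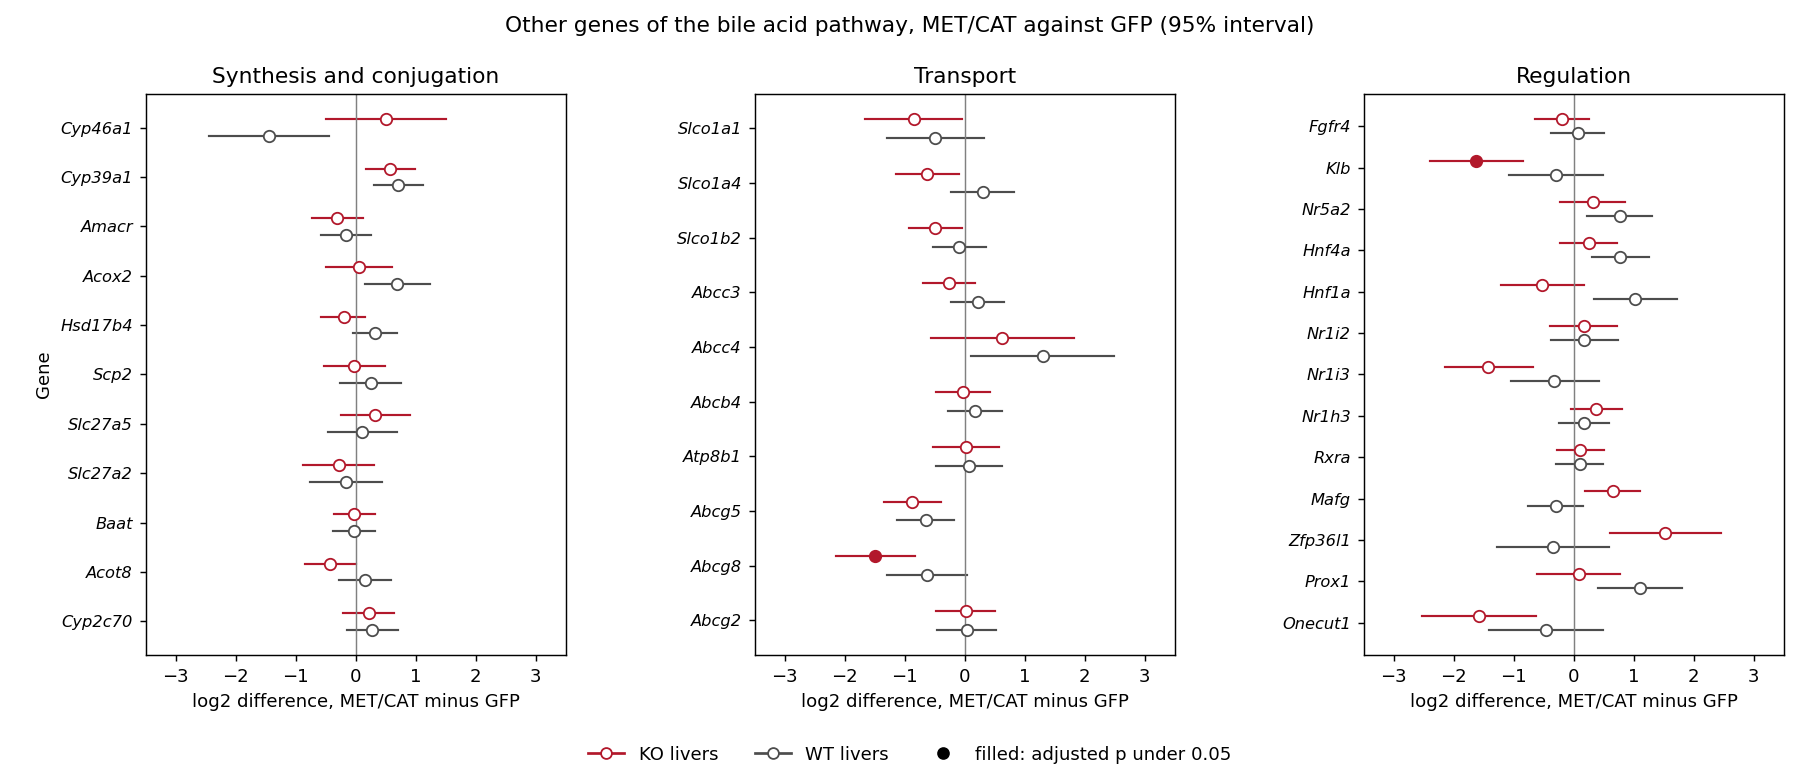
Log2 difference, MET/CAT minus GFP (x axis), of the 34 tested genes of the wider list (y axis) by role, in KO livers (red) and WT livers (grey), with 95% intervals from limma; filled points have an adjusted p under 0.05 over all genes. Filled points are Abcg8 at −1.49 and Klb at −1.62, both in KO livers.

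Between genotypes none of the 34 was called by limma. At an unadjusted p under 0.05 there were 6 in MET/CAT livers, 5 in GFP livers and 4 on average, where the shares of all genes were 7.76%, 15.5% and 8.11%. edgeR called 0 in each, and DESeq2 called Slco1a1 on average and 0 within either plasmid. On average DESeq2 called 0.281% of all genes. Slco1a1, an organic anion uptake transporter, had 1836, 3669 and 1230 normalized counts in KO MET/CAT and 3747, 4548 and 2854 in KO GFP livers, against 1149, 984.9 and 1277 in WT MET/CAT and 1623, 2528 and 971.8 in WT GFP livers. Averaged over plasmids it differed by 1.02 (adjusted p = 0.508, limma). In GFP livers all 10 tested transporters of the wider list had higher values in KO than in WT, 5 of them with no overlap, against 9.15% of all genes. Of the 10, limma called 0, and 2 had an unadjusted p under 0.05. Their median log2 difference was 0.37, where that of all genes was −0.07. Without the third KO GFP library, left out after the values were seen, 9 of the 10 had higher values in KO, with a median of 0.27. The trend of expression with gene length also differed between these groups. Its rank correlations were 0.11, −0.0852 and 0.435 in the KO GFP libraries, against −0.208, −0.333 and 0.0146 in the WT GFP libraries. The part of gene length in these transporter values was not tested.

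The genes most like Cyp7a1 over the 12 libraries were Atp7b, Nr3c2 and Trpm7. Likeness was the mean absolute difference between log2 deviations from each gene's own mean, among 8360 genes. It was 0.41 for Atp7b, a copper transporter, 0.42 for Nr3c2, the mineralocorticoid receptor, and 0.44 for Trpm7, an ion channel, where the mean absolute deviation of Cyp7a1 itself was 0.85. Atp7b averaged 196.3 normalized counts in KO MET/CAT, 248.0 in WT MET/CAT, 658.5 in KO GFP and 300.3 in WT GFP livers. Among the 10 genes Abcc2 lay nearest to Cyp7a1 at 0.59 and Nr0b2 farthest at 1.2. For Cyp8b1, whose own mean absolute deviation was 0.38, Csrp3 lay at 0.24 and Rassf3 at 0.25. All these values share the same 12 libraries and their scaling.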

How the data were processed

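The deposited table holds 1 value per gene and library (47263 genes, 12 libraries). Reads were aligned with HISAT2 2.0.4 to GRCm38 and counted per gene with HTSeq 0.11.2, per the submitters' processing notes. Strand setting, annotation and normalization tool were not stated. The deposited values are a signal: gene counts divided by 1 factor per library, as their steps of 0.753 to 1.20 per read show. Recovered read numbers were whole, within 0.05 reads, in 100% of values. Of the genes, 23020 had no read, 26 names had been turned into dates and 2 were duplicated.

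limma 3.58.1 (R 4.3.3, empirical Bayes with a trend) was fitted to log2(value + 1) of the 13871 genes with at least 10 normalized counts in at least 3 libraries, with 4 group means over all 12 libraries. The log2 differences are on that scale and understate low genes. Intervals cover 95%. p-values were Benjamini-Hochberg adjusted over all 13871 genes and called under 0.05. Alternatives included edgeR 4.0.16 and DESeq2 1.42.0 on the recovered reads. The limma code was tested on simulated data for MET/CAT against GFP in KO livers. It called 30 of 50 genes raised 4-fold and 32 of 50 lowered 4-fold. Of genes changed 2-fold it called 2 of 50 raised and 3 of 50 lowered, so most changes of that size were missed there. Replicate numbers do not pair the samples: correlations of same-numbered deviations ran from −0.195 to 0.28. The 10 genes, the wider list and the markers were chosen with earlier results of these data known. Named were all 10 genes, the wider-list genes called in any comparison, further wider-list genes among the 4 smallest p in a comparison, and the 3 genes most like Cyp7a1 and Cyp8b1 with a mean of at least 100, of which 1 is not reported here.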

Additional observations from a re-analysis of the deposited data

How the results depend on the processing

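Of 70 differences of the 10 genes (7 comparisons each), 25 had another sign under some alternative, none of them above 0.26 in size on the log2 scale and none called with that other sign. No called difference changed sign. Cyp7a1 passed in KO livers under all 24 alternatives (−3.01 to −2.18, adjusted p 6.76e-09 to 0.038) and averaged over genotypes under all 23 (adjusted p 4.24e-06 to 0.024). Abcc2 in KO livers lost its call in 12 of 24, namely 10 of 12 with 1 library left out, no filter on low values, and a fit of only the libraries compared (adjusted p 0.00126 to 0.16 over all 24). So the count of the 10 genes called in KO livers, 2, was 1 with no filter and 1 with only the libraries compared, 1 to 2 with 1 library left out, 3 with DESeq2 and 5 with library quality weights. In WT livers quality weights called 2 in place of 0. Averaged over genotypes the count of 1 became 2 with DESeq2, edgeR, equal library totals, the length trend removed, a pseudocount of 5, quantile normalization and the replicate block, 3 with quality weights, and 1 to 2 with 1 library left out; the added gene was Abcc2 in each count of 2. Between genotypes in GFP livers the count of 0 became 1 with DESeq2 and 6 with quality weights, and for the interaction 1 with DESeq2 and 4 with quality weights; it was 0 in MET/CAT livers and averaged over plasmids under every alternative. The cause was not tested. The replicate block gave Cyp7a1 −2.73 in KO livers (adjusted p = 0.00575, limma) and, beside the count averaged over genotypes, changed no other count of the 10 genes. At equal library totals the median of all genes was −0.17 in KO livers, −0.12 in WT livers and −0.14 on average for MET/CAT against GFP, where it was 0.05, −0.01 and 0.02 as deposited. Over all genes limma called 47 with the plasmids in WT livers, against 71 to 116 with equal totals, edgeR (73), quantile normalization (81) or the length trend removed (116), 578 with DESeq2, 2615 with quality weights and 3 to 372 with 1 library left out (3 without WT GFP replicate 1 and 372 without WT MET/CAT replicate 1). In KO livers the 174 became 928 with DESeq2, 1635 with quality weights, 86 in a fit of only the libraries compared and 48 to 263 with 1 library left out; on average the 527 became 1139, 2377 and 277 to 720. Between genotypes the 1, 1 and 2 genes in MET/CAT livers, in GFP livers and on average became 34, 121 and 39 with DESeq2 and 2, 4575 and 160 with quality weights; for the interaction the 0 became 169 and 1374. With 3 libraries a group the interval of Nr0b2 in KO livers spanned −0.95 to 1.26. The fewest reads of any of the 10 genes in a library were 172, for Nr0b2.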

Other observations

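Slc10a2, the apical bile acid transporter of ileum and bile ducts and 1 of the 8 cholangiocyte markers, was singled out after its values were seen. It had 879.1, 1091 and 665.5 normalized counts in KO MET/CAT and 181.4, 356.4 and 1468 in WT MET/CAT livers, against 295.9, 229.6 and 308.3 in KO GFP and 324.1, 201.7 and 118.7 in WT GFP livers. The KO groups did not overlap and the WT groups did. Averaged over genotypes its difference was 1.42 ± 0.40 on the log2 scale (adjusted p = 0.0685, limma), and it was called in 4 of 23 alternatives. These were edgeR (1.63, adjusted p = 0.0423), DESeq2 (1.63, adjusted p = 0.00111), library quality weights (1.2, adjusted p = 0.0179) and the fit without WT MET/CAT replicate 1 (1.75, adjusted p = 0.0113, limma). With 1 library left out the difference ran from 1.0 (without WT MET/CAT replicate 3) to 1.75, and the highest adjusted p over the alternatives was 0.15. Of the 7 cholangiocyte markers tested, limma called 1 higher averaged over genotypes, Sox9, where 2.4% of all genes were called higher.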
